A study of Homo sapiens with 6 samples.

Results

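The G1 cyclins and their kinases are the genes that carry a cell from a growth signal to the start of DNA synthesis. The set holds 8 genes, chosen by symbol: the D cyclins CCND1, CCND2 and CCND3, the E cyclins CCNE1 and CCNE2, and the kinases CDK2, CDK4 and CDK6. They are 8 of the 58735 genes in the deposited count table, and each matched 1 row. All 8 passed edgeR's filter on low counts, which kept 14736 genes. D cyclins are made in response to mitogens and bind CDK4 and CDK6, which start to phosphorylate the retinoblastoma protein RB. This releases E2F factors, which raise the E cyclins, and these bind CDK2 to complete the step into S phase. The inhibitors of the CIP/KIP family (p21, p27 and p57) act on cyclin-CDK complexes, and those of the INK4 family bind CDK4 and CDK6 alone.

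RNA was sequenced from MDA-MB-231 cells, an established human TNBC line labelled wild type, in 3 vehicle-treated samples and 3 samples treated with SCH at 100 mg/l, both for 24 h. SCH is an aqueous extract of the herb *Salvia chinensis* Benth, hence a mixture, and the composition of the vehicle is not given in the sources used here. The line is known to lack the CDKN2A and CDKN2B locus. The total counts were 20291379, 18714240 and 18334857 in the vehicle-treated samples and 16836369, 17979434 and 18414924 in the SCH-treated samples. The 8 markers fixed for the line were all expressed, with AXL the most abundant (mean 228 FPKM, fragments per kilobase of gene length, scaled to the library total), and their summed level was 1075, 1088 and 1078 FPKM after vehicle and 773, 786 and 779 FPKM after SCH, with 6 of the 8 lowered (75%, beside 29.4% of all tested genes). Of 8 luminal breast markers, ESR1, PGR and CDH1 had at most 6 counts in any sample, ERBB2 was the most abundant (mean 7.44 FPKM), and the sum lay between 17.4 and 19.3 FPKM in all 6 samples. All 5 luminal markers that were tested changed, beside 58.7% of all tested genes, with FOXA1 (log2 fold change 1.16), ERBB3 (0.74) and ERBB2 (0.29) raised and GATA3 (-0.79) and EPCAM (-0.52) lowered. Of 8 blood and stromal markers, none reached a mean of 1 FPKM, HBB had 0 counts in every sample, COL1A1 was the most abundant (mean 0.650 FPKM), and the sum lay between 0.949 and 1.23 FPKM. Of the 4 tested, COL1A1 was raised (0.76) and PTPRC lowered (-2.75, from 34 to 39 counts after vehicle to 3 to 9 after SCH).

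After SCH, CCND1, CDK4 and CDK6 were lowered, CCND3, CCNE1 and CCNE2 were raised, and CDK2 and CCND2 did not pass the test (edgeR's quasi-likelihood test on counts, adjusted p under 0.05 by Benjamini-Hochberg over all tested genes). Thus 6 of the 8 genes changed, beside 58.7% of all tested genes. Among all tested genes 29.3% were raised and 29.4% lowered, so the members' share of changed genes was not read as particular to them. With scaling by library size only, 62.6% of all changed genes were raised in place of 49.9%, and the 6 calls and their directions did not move. No member changed by 1 or more on the log2 scale, which 8.77% of all genes did. In 6 members the groups did not overlap, as in 62.4% of all genes. In bulk samples such as these, fewer cells in a phase of the cycle and less RNA per cell cannot be told apart.

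**Figure D1:**
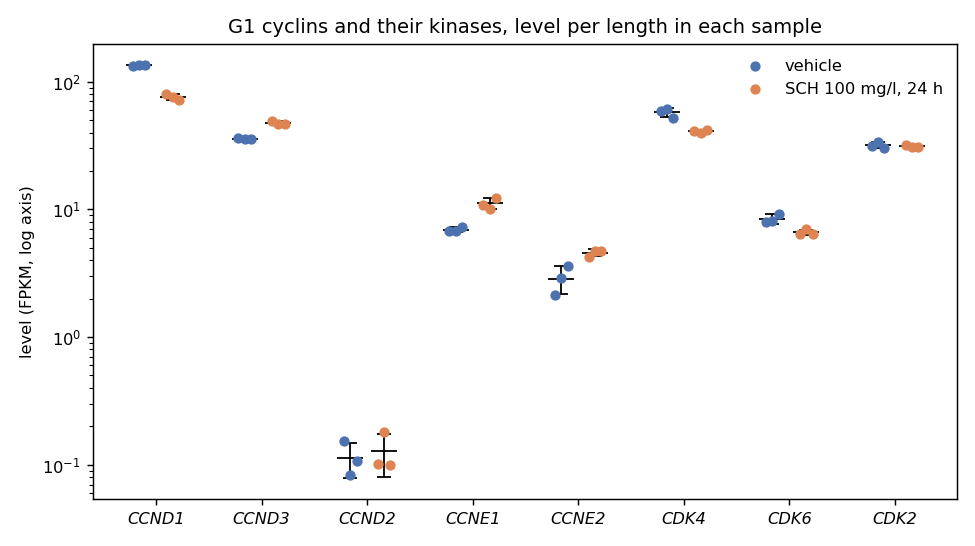
Level of each gene in each sample as FPKM on a log axis, with points for the 3 vehicle-treated (blue) and 3 SCH-treated (orange) samples and black bars for the mean and SD. CCND1 was the highest of the 8 genes in both groups and CCND2 the lowest, near 0.1 FPKM.

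In FPKM, which is per length and so allows an approximate comparison of levels of different genes, CCND1 led in the vehicle-treated samples with 134 ± 1.81 (SD, n = 3). CDK4 followed with 57.6 ± 4.66, CCND3 with 35.7 ± 0.283, CDK2 with 31.8 ± 1.73, CDK6 with 8.44 ± 0.726, CCNE1 with 6.93 ± 0.289, CCNE2 with 2.87 ± 0.714 and CCND2 with 0.114 ± 0.0354 FPKM (SD, n = 3 each). No 2 neighbours in this order overlapped in their samples. This covers the spread between samples only, since the length is that of all annotated exons, whichever transcripts are expressed. After SCH the order was CCND1 (75.9 FPKM), CCND3 (47.4), CDK4 (40.8), CDK2 (31.3), CCNE1 (11.1), CDK6 (6.60), CCNE2 (4.57) and CCND2 (0.128), again with no overlap between neighbours. Here CCND3 stood above CDK4, and CCNE1 above CDK6, the reverse of their order after vehicle.

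**Figure D2:**
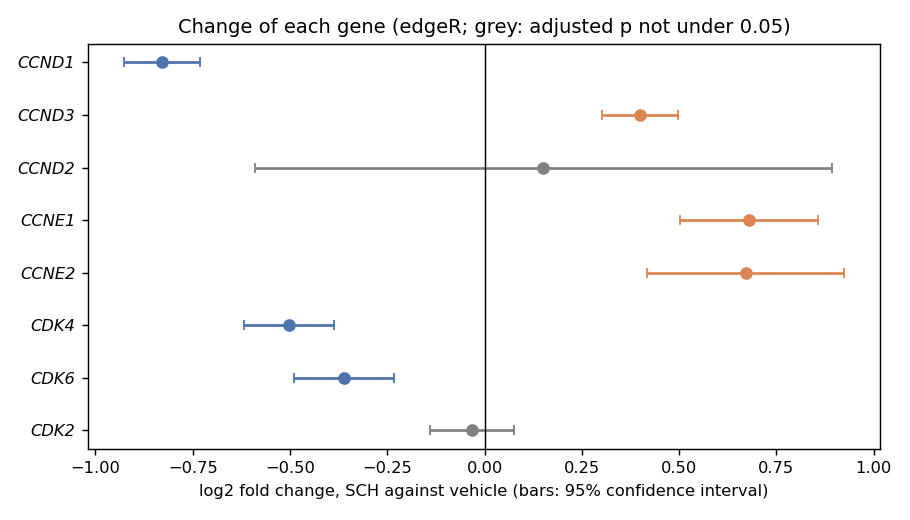
Log2 fold change of each gene, SCH against vehicle, from edgeR with 95% confidence intervals. Blue marks lowered genes, orange raised genes and grey the 2 genes that did not pass the threshold; the interval of CCND2 spans from -0.59 to 0.89.

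CCND1 (ENSG00000110092, chromosome 11 of GRCh38 from 69641087 to 69654474) encodes cyclin D1, the D cyclin best known in breast cancer. Its TMM-normalized counts relative to library size (CPM) were 660, 677 and 675 after vehicle and 395, 378 and 360 after SCH. Every SCH-treated sample lay far below every vehicle-treated sample. On the log2 scale the fold change was -0.83, with a standard error of 0.047 (adjusted p = 6.89e-13), a level 0.563 times that of vehicle with a 95% interval of 0.526 to 0.602. Of all tested genes, 13.2% had a change of this size or more in either direction. LTO1 on the opposite strand shares 10.3% of the exonic bases of CCND1 and was itself lowered, with a log2 fold change of -0.47. The library kit did not mark strand, so reads of the shared bases cannot be told apart.

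CCND3 (ENSG00000112576, chromosome 6 from 41934933 to 42050357) encodes cyclin D3, which partners the same kinases. It had 216, 214 and 213 CPM after vehicle and 294, 278 and 278 CPM after SCH. The vehicle-treated samples were nearly equal, and all SCH-treated samples were above them. On the log2 scale the fold change was 0.40, with a standard error of 0.047 (adjusted p = 1.25e-07), opposite in sign to that of CCND1. CCND2 (ENSG00000118971, chromosome 12 from 4273772 to 4305350), which encodes cyclin D2, had only 22, 11 and 14 counts after vehicle and 13, 25 and 14 counts after SCH. The groups overlapped, and a change of CCND2 was not detectable at this depth (log2 fold change 0.15, 95% interval -0.59 to 0.89, adjusted p = 0.739). AC008012.1 on the same strand shares 13.8% of the exonic bases of CCND2 and had a median of 0 counts in both groups. The pseudogenes CCND2P1, CCND3P1, CCND3P2 and CDK4P1 and the antisense gene CCND2-AS1 held at most 3 counts over all 6 samples together.

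The D cyclins were also compared with one another within each sample. CCND1 made up 78.5%, 79.1% and 79.1% of the summed D cyclin FPKM after vehicle and 61.7%, 61.9% and 60.8% after SCH, and the rest was almost all CCND3. The difference was -17.4 percentage points, many times the SD of 0.355 and 0.581 points within the groups (exact permutation test, two-sided, p = 0.1, which 3 against 3 cannot go below; adjusted p = 0.133 over the 12 shares, sums and ratios computed). The ratio of CCND1 to CCND3 was 3.76 ± 0.0760 after vehicle and 1.60 ± 0.0401 after SCH (SD, n = 3). Such a ratio within a sample does not depend on how samples are scaled. The summed D cyclin level was 170 ± 1.57 FPKM after vehicle and 123 ± 5.27 FPKM after SCH (SD, n = 3), without overlap.

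**Figure D3:**
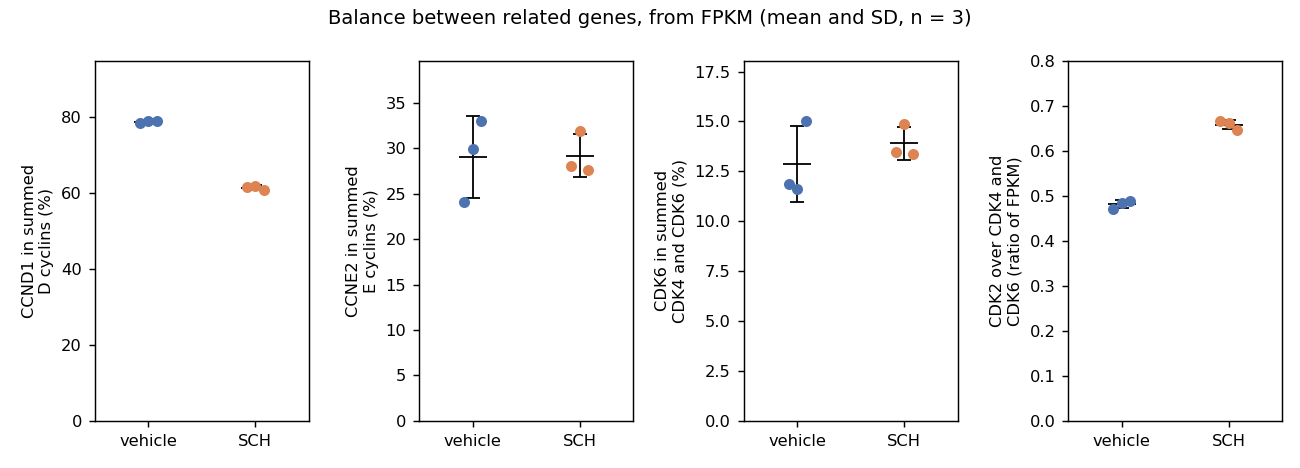
Balance between related genes in each sample, computed from FPKM, with the mean and SD of 3 samples per group; the first 3 panels are percentages and the last a ratio, and all axes start at 0. The mean share of CCND1 was 78.9% after vehicle and 61.5% after SCH, the shares of CCNE2 and CDK6 overlapped between the groups, and the ratio of CDK2 to CDK4 and CDK6 was higher in every SCH-treated sample.

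CCNE1 (ENSG00000105173, chromosome 19 from 29811898 to 29824308) encodes cyclin E1, whose RNA normally peaks at the border of G1 and S phase. It had 17.9, 17.8 and 19.2 CPM after vehicle and 28.6, 26.7 and 32.5 CPM after SCH. All SCH-treated samples were above all vehicle-treated samples, with more spread among themselves. On the log2 scale the fold change was 0.68, with a standard error of 0.085 (adjusted p = 3.55e-07), or 1.60 times the level of vehicle with a 95% interval of 1.42 to 1.81. No exonic base of CCNE1 is shared with another annotated gene. The 157 bases before its first annotated exon, on the plus strand at chr19:29811741-29811897 (GRCh38.p14, from RefSeq), are shown as an example from a raised member. Capitals mark 5 matches to the GC box GGGCGG on either strand.
CCNE1: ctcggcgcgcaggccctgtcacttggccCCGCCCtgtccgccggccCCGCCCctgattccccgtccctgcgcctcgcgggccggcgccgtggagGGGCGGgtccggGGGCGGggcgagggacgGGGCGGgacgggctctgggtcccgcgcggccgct
GC boxes are common in promoters, and 42.6% of the 35116 windows of 250 bases before an annotated RefSeq start held at least 1. The share with 5 or more was not counted. The windows of CCND3, also a raised member, held 0, 2 and 5 matches and are not shown. The E2F letters TTTCGCGC, TTTGGCGC, TTTCCCGC and TTTGCCGC, searched on both strands, were in none of the 7 windows of the 4 members with an entry (CCND3, CCNE1, CDK4 and CDK6) and in 2.79% of all windows. This says only that those letters are not in these windows.

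CCNE2 (ENSG00000175305, chromosome 8 from 94879770 to 94896678) encodes cyclin E2, the close relative of cyclin E1. It had 9.79, 13.1 and 16.3 CPM after vehicle and 19.1, 21.5 and 21.5 CPM after SCH. The groups did not overlap, but the vehicle-treated samples spread widely, with a coefficient of variation of 24.9% where counting alone would give 6.47%. On the log2 scale the fold change was 0.67, with a standard error of 0.12 (adjusted p = 5.50e-05), and leaving out 1 sample at a time moved it between 0.50 and 0.86. INTS8, a subunit gene of the Integrator complex on the opposite strand, shares 1629 bases or 37.0% of the exonic bases of CCNE2. It was also raised, from 22.1 ± 0.988 to 38.4 ± 2.40 CPM (SD, n = 3), a log2 fold change of 0.80. The part of INTS8 reads in the value of CCNE2 was not tested. CCNE2 made up 29.02% ± 4.54 of the summed E cyclin FPKM after vehicle and 29.2% ± 2.34 after SCH (SD, n = 3). The groups overlapped, and the difference of 0.16 points was under the spread between replicates (exact permutation test, two-sided p = 1). The sum of both E cyclins was 9.80 ± 0.965 FPKM after vehicle and 15.7 ± 1.18 FPKM after SCH (SD, n = 3).

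CDK6 (ENSG00000105810, chromosome 7 from 92604921 to 92836594) encodes a kinase of the D cyclins. It had 101, 102 and 118 CPM after vehicle and 80.6, 88.1 and 81.1 CPM after SCH. The third vehicle-treated sample was the highest, and the groups did not overlap. On the log2 scale the fold change was -0.36, with a standard error of 0.062 (adjusted p = 2.67e-05), or 0.778 times the level of vehicle. CDK6 is the only member with a genomic span over 200 kb (232 kb), and the 1021 tested genes of that span had a median log2 fold change of -0.36, with 571 lowered and 149 raised. The part of span in the value of CDK6 was not tested. CDK6 made up 11.9%, 11.6% and 15.0% of the summed CDK4 and CDK6 FPKM after vehicle and 13.5%, 14.9% and 13.4% after SCH. The difference of 1.06 points was within the spread of the samples (exact permutation test, two-sided p = 0.5, adjusted p = 0.6 over the 12 quantities). It was 0.46 points without vehicle replicate 2 and 2.16 points without vehicle replicate 3.

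CDK4 (ENSG00000135446, chromosome 12 from 57747727 to 57756013) encodes the other kinase of the D cyclins. It had 194, 201 and 172 CPM after vehicle and 134, 130 and 136 CPM after SCH. The third vehicle-treated sample was the lowest of its group and still above all SCH-treated samples. On the log2 scale the fold change was -0.50, with a standard error of 0.056 (adjusted p = 5.37e-08), a level 0.705 times that of vehicle. TSPAN31 on the opposite strand shares 43.2% of the exonic bases of CDK4. It was present at 22.2 ± 2.01 CPM after vehicle and 20.6 ± 0.638 CPM after SCH (SD, n = 3) and did not pass the test (log2 fold change -0.11, adjusted p = 0.273 from edgeR). The part of TSPAN31 reads in the value of CDK4 was not tested. The window of 250 bases before the RefSeq start of CDK4 held 3 matches to the E-box CACGTG, the letters bound by MYC, which read the same on both strands. They are shown with 5 bases on each side and the E-box in capitals, on the minus strand of GRCh38.p14, at chr12:57752516-57752531, chr12:57752496-57752511 and chr12:57752401-57752416 in that order.
E-box 216 bases before the start: gcggtCACGTGtgata
E-box 196 bases before the start: cagatCACGTGgctgc
E-box 101 bases before the start: gcggtCACGTGcccag
The last 2 lie wholly, and the first in part, within annotated CDK4 exons of GENCODE release 29. At least 1 E-box stood in 6.34% of the 35116 windows and 3 or more in 0.0797%. The 6 other windows searched, from CCND3, CCNE1 and CDK6, held none. A match is a description of the letters and not a bound site.

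CDK2 (ENSG00000123374, chromosome 12 from 55966769 to 55972784) encodes the kinase of the E cyclins. It had 127, 135 and 122 CPM after vehicle and 127, 125 and 125 CPM after SCH. The groups overlapped, and the fold change was -0.033 on the log2 scale, with a standard error of 0.052 (adjusted p = 0.615). Its 95% interval ran from 0.907 to 1.05 times the level of vehicle, so that a fall of the size seen for CDK4 lay outside it. CDK2 shares 16.8% of its exonic bases with genes on the opposite strand. AC025162.1 (14.5%) had a median of 0 counts in both groups. PMEL (2.29%) had a median of 29 counts after vehicle and 44 after SCH. The ratio of CDK2 to the sum of CDK4 and CDK6 in FPKM was 0.472, 0.484 and 0.489 after vehicle and 0.668, 0.662 and 0.648 after SCH, without overlap (exact permutation test, two-sided p = 0.1, adjusted p = 0.133). The ratio of the D cyclins to CDK4 and CDK6 was 2.58 ± 0.161 and 2.60 ± 0.121 (SD, n = 3), and these overlapped (exact permutation test, two-sided p = 0.9). The ratio of the D cyclins to the E cyclins was 17.5 ± 1.58 after vehicle and 7.90 ± 0.834 after SCH (SD, n = 3).

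By pattern over the 6 samples, the genes most like CCND1 among 10713 genes averaging 100 counts or more were JAG1, PLXDC2, SF3B3, FAM167A and RPH3AL, with a Pearson correlation of log2 CPM between 0.9994 and 0.9996. Altogether 340 genes exceeded 0.99. All genes share the contrast of the groups, and its part in these correlations was not tested. Among the named genes most like CCND1, the log2 fold changes differed widely, from -1.42 for PLXDC2 to -0.30 for SF3B3. Those most like CCNE2 were SOAT1, ACSL3, RBAK, PPP6R3 and PPM1B, with correlations between 0.992 and 0.994, and 7 genes exceeded 0.99.

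Of 7 CDK inhibitor genes, 5 were tested, 3 were raised, none was lowered and 2 did not pass (3 of 5 changed, beside 58.7% of all tested genes). CDKN1A, which encodes p21, had 100.2, 112 and 97.6 CPM after vehicle and 513, 531 and 532 CPM after SCH, a log2 fold change of 2.34. In FPKM, the ratio of CDKN1A to the sum of CDK2, CDK4 and CDK6 was 0.335 ± 0.0121 after vehicle and 2.12 ± 0.0496 after SCH (SD, n = 3), that is, below the kinases together in the former and above them in the latter. CDKN1C, which encodes p57, rose from 5.18 ± 0.230 to 9.88 ± 0.719 CPM (log2 fold change 0.93), and CDKN2D, an INK4 gene, from 31.9 ± 1.47 to 39.4 ± 2.87 CPM (0.31, SD and n = 3 for both). CDKN1B, which encodes p27, and CDKN2C, another INK4 gene, had log2 fold changes of -0.10 and -0.10 with adjusted p of 0.151 and 0.160 from edgeR. Without vehicle replicate 3, CDKN2C was lowered (-0.13, adjusted p = 0.0411). CDKN2A and CDKN2B had 0 counts in all 6 samples, where the floor of 3 counts allows up to 0.154 to 0.172 CPM.

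**Figure D4:**
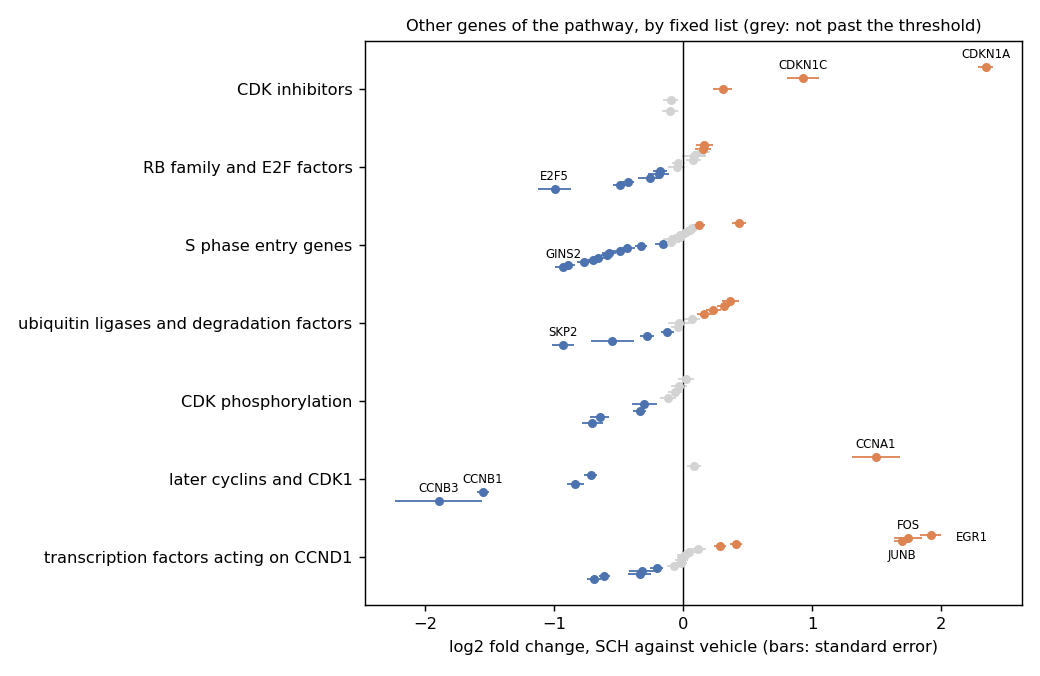
Log2 fold change, SCH against vehicle, with its standard error for the tested genes of 7 lists around the G1 step. Orange marks raised, blue lowered and grey genes not past the threshold, and names are given for those at 0.9 or more in size; CDKN1A lies at 2.34, and 4 of the 6 later cyclins and CDK1 lie below 0.

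Downstream of the kinases, 8 of the 13 genes of the RB family and E2F factors changed, 2 raised and 6 lowered (61.5%, median log2 fold change -0.05, against 58.7% and -0.003 over all tested genes). RB1, the substrate of these kinases, had a log2 fold change of 0.15 (adjusted p = 0.0366 from edgeR), and its relatives RBL2 and RBL1 had -0.19 and -0.05. Of the activating factors, E2F1 had 158 ± 5.93 CPM after vehicle and 154 ± 3.43 CPM after SCH (SD, n = 3, adjusted p = 0.518 from edgeR), while E2F2 and E2F3 were lowered, with log2 fold changes of -0.26 and -0.18. E2F5 (-0.995) and E2F4 (-0.49), both known as repressors that act with RBL1 and RBL2, and the partner TFDP1 (-0.43) were lowered more, and TFDP2 was raised (0.17). E2F6 (0.08), E2F7 (0.08) and E2F8 (0.14) did not pass. The list's count varied between fits. It was 5 without vehicle replicate 1, vehicle replicate 2 or SCH replicate 1, all lowered, so that RB1 and TFDP2 were not called there. Without SCH replicate 2 it was 3, all lowered, with library size only it was 7, with 4 raised and 3 lowered, and with upper quartile scaling 6, all lowered.

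Of 20 genes of S phase entry, 13 changed (65%, beside 58.7% of all tested genes), 2 raised and 11 lowered (29.3% and 29.4% of all tested genes), and the median change was -0.24 on the log2 scale. The lowered genes with the smallest p were MCM5 (-0.89) and MCM6 (-0.77), of the helicase that opens DNA, and GINS2 (-0.93), of the complex that activates it. The raised genes were RRM2 (0.43), a subunit of ribonucleotide reductase, and PCNA (0.12), the sliding clamp, whose call was lost with upper quartile scaling, without vehicle replicate 1 and without SCH replicate 3 (adjusted p = 0.108, 0.0941 and 0.0821 from edgeR). With library size only 4 genes of the list were raised and 10 lowered. Among the later cyclins and CDK1, 1 of 6 was raised and 4 lowered (83.3% changed, beside 58.7% of all tested genes). CCNB1, CCNB2 and CCNA2, the cyclins of mitosis and of S and G2 phase, had log2 fold changes of -1.55, -0.84 and -0.72. CCNB3 (-1.90) and CCNA1 (1.49) changed on few counts, with 23 to 48 and 31 to 37 counts after vehicle and 9 to 12 and 86 to 101 after SCH. CDK1 did not pass (0.08, adjusted p = 0.210 from edgeR), though it was raised with library size only and without vehicle replicate 3 (log2 fold change 0.19 and 0.15). CCNE1 and CCNE2 were thus raised in the same samples in which CCNA2, CCNB1 and CCNB2 were lowered.

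Of the genes that phosphorylate or dephosphorylate CDKs, 4 of 8 were lowered and none was raised (50% changed, beside 58.7% of all tested genes, of which 29.4% were lowered and 29.3% raised). CCNH (-0.70) belongs to the CDK-activating kinase, whose other parts CDK7 (0.02) and MNAT1 (-0.12) did not pass. WEE1 (-0.65), an inhibitory kinase of CDK1 and CDK2, and the phosphatases CDC25B (-0.34) and CDC25C (-0.30) were lowered, while CDC25A (-0.06), the phosphatase of the G1 step, and PKMYT1 (-0.03) did not pass. Of 11 ubiquitin ligase and degradation genes, 4 were raised and 4 lowered (72.7% changed, beside 58.7% of all tested genes). SKP2, the F-box protein that marks p27 for degradation, fell from 40.2 ± 4.27 to 21.0 ± 1.04 CPM (SD, n = 3), a log2 fold change of -0.93. CUL1 (-0.28), its scaffold, and FBXO4 (-0.55) were also lowered. AMBRA1 (0.37), the adaptor of the ligase that degrades D cyclins, GSK3B (0.23), whose kinase phosphorylates cyclin D1, and SKP1 (0.31) were raised.

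Among 17 genes for transcription factors known to act on CCND1, 5 were raised and 5 lowered (58.8% changed, near the 58.7% of all tested genes), and their median change was -0.002 on the log2 scale. EGR1 (1.92), FOS (1.74) and JUNB (1.70), immediate early genes, had the smallest p among the raised. MYC fell from 242 ± 3.37 to 150 ± 14.5 CPM (SD, n = 3), a log2 fold change of -0.69, and FOSL1, the most abundant AP-1 gene of the list by FPKM, and YAP1 had -0.61 and -0.20. With library size only the list had 7 raised and 3 lowered. Whether the level of any of these genes bears on CCND1 or CDK4 was not tested. Among the listed genes named here, PKMYT1 shares 31.6%, CCNH 22.3%, RRM2 20.2%, E2F5 18.6% and JUNB 14.2% of their exonic bases with another gene, and RBL2 and CUL1 share 18.2% and 10.9%.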

How the data were processed

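For each of the 6 samples the authors deposited unnormalized counts by gene and FPKM values (count per gene length and sample total). Libraries were made from poly-T purified mRNA. The submitters' processing notes list HISAT2 2.0.5, featureCounts 1.5.0-p3, CASAVA 1.8 and DESeq2 1.20.0, with GRCh38, but no counting settings. The labels give RPMI-1640 medium, the paper's methods DMEM. The labels describe the replicates as biological.

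Counts were tested in R 4.3.3 with edgeR 4.0.16 (TMM, filterByExpr, quasi-likelihood fit, no covariates, Benjamini-Hochberg adjustment over 14736 genes, threshold 0.05). Standard errors are the size of the log2 fold change over the root of F, and the 95% intervals use its degrees of freedom. Single quantities were compared with exact permutation tests in scipy 1.17.1. Exon overlaps were computed from GENCODE release 29, whose coordinates are those of the table for all 8 genes. Chi-square per degree of freedom between replicates was 2.11 to 5.73, so none was a copy of another. The 95% intervals include the spread between replicates, while the floor of 3 counts covers counting error only.

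The named genes were the 8 members, the CDK inhibitor, RB and E2F, CDK phosphorylation and later cyclin lists in full, at most 3 rises and 3 falls with the smallest p of the S phase, ubiquitin ligase and transcription factor lists, the leading and zero genes of the marker lists (other luminal genes and PTPRC were added after their values were seen), the 5 genes most like CCND1 and CCNE2, and same-family pseudogenes and overlapping genes. Members and lists were chosen with earlier results of these data known. Alternatives were other normalizations, filters and thresholds, DESeq2 1.42.0, limma 3.58.1 on log2(FPKM + 1) and log2(FPKM + 0.1), a replicate block, and each replicate left out. The edgeR fit was tested on simulated data.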

Additional observations from a re-analysis of the deposited data

How the results depend on the processing

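All 6 changed members kept direction and threshold in all 15 alternative fits, CCND1 from -0.86 to -0.73, CCND3 from 0.37 to 0.50, CCNE1 from 0.61 to 0.78, CCNE2 from 0.50 to 0.86, CDK4 from -0.57 to -0.40 and CDK6 from -0.40 to -0.26 on the log2 scale. CDK2, which passed in none, had 0.071 with library size only and from -0.067 to 0.011 without 1 replicate (0.011 without vehicle replicate 2). CCND2 rests on few counts and ran from -0.19 (without SCH replicate 2) to 0.43 without 1 replicate. Requiring a log2 fold change of at least 1 left 0 members and 1292 genes in place of 8650, by construction. The count of changed genes lay between 7809 and 8489 without 1 replicate, and DESeq2 gave 7532. For the RB family and E2F factors, DESeq2 gave 5 changed genes in place of 8, and leaving out 1 replicate gave 3 to 8 (5 without vehicle replicate 1, vehicle replicate 2 or SCH replicate 1, and 3 without SCH replicate 2); the cause was not tested. The difference in the share of CCNE2 ran from -2.30 (without vehicle replicate 1) to 2.16 points without 1 replicate, and that of CDK6 from 0.46 to 2.16 points. No pairing by replicate number was visible, with deviations of same-numbered samples correlated at -0.04 to 0.07, though a weak pairing could be missed. With the replicate block 6 members and 8705 genes changed. Vehicle replicates 2 and 3 correlated best with another number (SCH replicates 1 and 2). Depth limits CCND2 most.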
